A study of Mus musculus with 2 samples.

Results

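RNA sequencing of 2 mouse heart libraries was examined for 10 genes of neutrophils: the alarmins S100a8 and S100a9, the secreted product Retnlg, the receptor Csf3r, and the granule genes Camp, Ngp, Ltf, Lcn2, Mpo and Elane. The genes were taken by name from the 24346 gene symbols of each deposited table, and all 10 were found. They had been picked because, in the same comparison described here, genes of mature cells and granule genes appeared to differ in opposite directions, so their values are a description and are not tested. The libraries came from cryopreserved heart tissue of animals labelled HFD-MI, a high-fat diet (HFD) with myocardial infarction (MI), both with the age label day 14. Probucol, which lowers cholesterol and acts as an antioxidant, had been given in the first group, and the second was untreated. With 1 library in each group no difference could be checked against replicates, and every statement compares these libraries and not the treatments. Both column headers carry the marks HypoE and CM, which the labels do not explain. The genotype, the event from which the days were counted, the part of the heart and any pooling of animals are also not stated there.

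Neutrophils are short-lived blood cells that reach an infarct early and are later cleared by macrophages. Their granule proteins are made in a fixed order in the bone marrow: azurophil granules with Mpo and Elane are filled in promyelocytes, specific granules with Ltf, Camp, Ngp and Lcn2 in the stages that follow, and the transcripts are largely shut down before the cells enter blood. Mature neutrophils still carry abundant transcripts of S100a8 and S100a9, whose proteins pair to form calprotectin, a danger signal for Toll-like receptor 4, and of Csf3r, the receptor of granulocyte colony-stimulating factor. S100a8 and S100a9 are also made by monocytes, and Lcn2 by macrophages, epithelia and stressed tissue cells. In a bulk sample, fewer cells of a type and less RNA per cell cannot be told apart.

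The upstream sequences of the members are shown because genes of this group are known targets of C/EBP factors, which drive granulocyte genes, and because members that share a motif can be compared in their values. Sequences are from RefSeq (GRCm38.p6, the mm10 assembly), where all 10 genes were matched, and are written 5′ to 3′ on the strand of the gene. Capitals mark matches on either strand to a C/EBP-type site, searched with the letters TTGCNNAA. They also mark a TATA box, searched as TATAAA on either strand. The core of a PU.1 site, searched as GAGGAA on either strand, is in capitals too. The stretches shown first end before the first annotated exon. That of S100a8 lies at chr3:90668821-90668977 (plus strand), that of S100a9 at chr3:90695722-90695971 (minus strand) and that of Retnlg at chr16:48872358-48872607 (plus strand).
S100a8: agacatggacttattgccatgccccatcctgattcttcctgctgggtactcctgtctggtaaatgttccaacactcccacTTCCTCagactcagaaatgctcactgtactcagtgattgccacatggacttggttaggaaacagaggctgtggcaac
S100a9: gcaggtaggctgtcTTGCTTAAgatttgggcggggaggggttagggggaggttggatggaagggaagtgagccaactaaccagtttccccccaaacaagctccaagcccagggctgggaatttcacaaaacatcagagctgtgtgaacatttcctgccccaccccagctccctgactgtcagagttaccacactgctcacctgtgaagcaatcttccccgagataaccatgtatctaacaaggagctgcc
Retnlg: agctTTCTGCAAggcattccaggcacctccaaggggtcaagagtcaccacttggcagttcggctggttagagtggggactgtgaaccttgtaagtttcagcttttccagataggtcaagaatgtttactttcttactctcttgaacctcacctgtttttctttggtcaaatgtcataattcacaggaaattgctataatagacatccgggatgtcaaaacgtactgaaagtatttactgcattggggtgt

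For the granule genes, 30 bases around each match to the C/EBP-type letters are shown, with only the named site in capitals, since Ngp held 2 of them and Ltf and Lcn2 held 1 each. The windows lie at chr9:110419659-110419688 and chr9:110419778-110419807 (plus strand, Ngp), chr9:111019206-111019235 (plus strand, Ltf) and chr2:32387937-32387966 (minus strand, Lcn2). The TATA box of S100a8, at position -30 from its RefSeq start, lies in the window chr3:90669029-90669058 (plus strand), where a match to the PU.1 core, left in lower case, ends just before it. This window, that of Lcn2 and that of Ngp at -11 lie inside the GENCODE gene spans given below, which begin upstream of the RefSeq starts.
Ngp, site at -138: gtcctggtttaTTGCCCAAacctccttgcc
Ngp, site at -11: tttatgtcaccggcagttcTTGGGCAAggc
Ltf, site at -75: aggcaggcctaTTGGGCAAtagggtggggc
Lcn2, site at -216: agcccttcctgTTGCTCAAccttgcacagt
S100a8, TATA box: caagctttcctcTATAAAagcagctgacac

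Within 250 bases before the RefSeq start, the C/EBP-type letters occurred in 5 of the 10 genes (S100a9, Retnlg, Ngp, Ltf and Lcn2) and in 9.56% of 32851 promoters of the same length. The letters were held by genes with higher values in the probucol library (S100a9 and Retnlg), with lower values (Ngp and Lcn2) and with equal fragment numbers (Ltf). Retnlg rested on 11 and 6 fragments and Ltf on 3 in each library, so neither direction is certain. A relation between the letters and the values was not tested. The PU.1 core occurred in 6 of the 10 and in 23.3% of all promoters. Its match in Csf3r lies in the window chr4:126024561-126024590, after the outermost RefSeq start of that gene (126023441). An inner start was thus used for Csf3r. The TATA box letters occurred in 1 of the 10, S100a8, and in 12.4% of all. These are matches of letters, and binding was not measured.

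The members differed widely in level. Values are FPKM (fragments per kilobase, scaled to the depth of the library), so levels of different genes can be compared within a library. Low FPKM were whole multiples of a step, which gave the number of sequenced fragments behind each value. Per FPKM, 1 kb of effective transcript held 6.70 fragments with probucol and 7.47 without, a similar depth. Genes with equal fragment numbers therefore have an FPKM ratio of 1.12. S100a8 and S100a9 were the most abundant members in the probucol library, while Lcn2 stood between them in the untreated library. Retnlg and Csf3r had a few FPKM, Camp and Ngp at most 2.06, and Ltf, Mpo and Elane less than the level of 0.5 FPKM (mean of both libraries) from which a gene was counted as measured. Thus 7 of the 10 members were measured, and Camp and Ngp passed only through the untreated library.

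**Figure D1:**
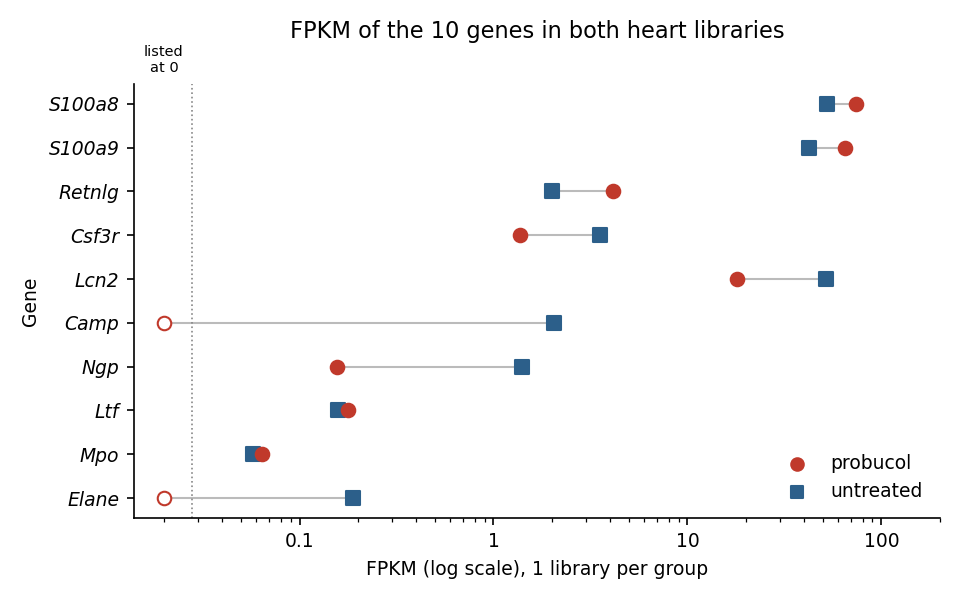
FPKM (log scale) of each of the 10 genes in the probucol library (red circles) and the untreated library (blue squares), with open symbols left of the dotted line for values listed at 0. S100a8, S100a9 and Retnlg lie further right in the probucol library, Csf3r, Lcn2, Camp and Ngp further right in the untreated library, and Ltf, Mpo and Elane stay below 0.2 FPKM in both.

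The alarmins were moderately higher in the probucol library. S100a8 (chr3:90668978-90670035, plus strand, 3 exons) had 73.9 FPKM with probucol and 52.4 without, a ratio of 1.41. About 90 and 71 fragments lay behind these values, and the 95% counting interval of the ratio (exact Clopper-Pearson, here and below) ran from 1.02 to 1.96. S100a9 (chr3:90692632-90695721, minus strand, 3 exons) had 64.9 FPKM with probucol and 42.4 without, a ratio of 1.53 with an interval from 1.17 to 1.999 on about 134 and 98 fragments. S100a9 has more than 1 RefSeq transcript, so these numbers and the interval are approximate. The lower bounds lie close to 1, and S100a8 is short, so its fragment number depends on the length subtracted for the fragment: with 250 bases in place of 210 its interval was 0.982 to 2.03 and included no difference. These intervals hold counting error alone: fragments copied by PCR are not independent molecules, and the spread between animals is unknown.

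Both alarmins kept nearly the same proportion to each other. The FPKM of S100a8 was 1.14 times that of S100a9 with probucol and 1.24 times without. Their genes lie 22.6 kb apart on opposite strands with 0 protein-coding genes between them in GENCODE. The proteins work as a pair. The other S100 genes differed among themselves: the limit of 1.5-fold was passed by 4 of 8 measured genes, all 4 of them lower with probucol. S100a4, a gene of motile immune cells and fibroblasts, had 55.5 FPKM with probucol against 136 without, S100a11 had 181 against 353, S100a6 had 123 against 217 and S100a10, the partner of annexin A2, had 160 against 266. S100a1, the S100 gene of heart muscle, was the most abundant, with 1898 against 1390 FPKM.

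Retnlg and Csf3r, both transcribed in mature neutrophils, differed in opposite directions. Retnlg (chr16:48872621-48874496, plus strand, 4 exons) encodes resistin-like gamma and had 4.11 FPKM with probucol and 2.01 without. These are 11 against 6 fragments, and the interval of the ratio, from 0.693 to 6.73, includes no difference. Its relative Retnla, a product of alternatively activated macrophages, had 2.68 against 1.72 FPKM. These are 6 and 4 fragments, and the interval from 0.397 to 8.06 includes no difference. Csf3r (chr4:126024550-126044440, plus strand, 17 exons) had 1.37 FPKM with probucol and 3.53 without, 2.57-fold lower. About 30 against 86 fragments gave a ratio of 0.389 with an interval from 0.248 to 0.596. Its fragment numbers are approximate for the same reason as those of S100a9. The FPKM of S100a9 was 47.3 times that of Csf3r with probucol and 12.0 times without, so this pair did not keep its proportion. It was 15.8 times that of Retnlg with probucol and 21.1 times without, resting on the few fragments of Retnlg.

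Of the granule genes, Lcn2 had the most fragments and was lower in the probucol library. Lcn2 (chr2:32384633-32388252, minus strand, 6 exons in the transcript used) encodes lipocalin 2, which binds bacterial siderophores, and had 18.1 FPKM with probucol and 52.1 without, 2.88-fold lower. About 78 against 250 fragments gave a ratio of 0.347 with an interval from 0.266 to 0.450. S100a8 and Lcn2 had nearly equal FPKM in the untreated library, with a ratio of 1.01, while S100a8 was 4.09 times as high as Lcn2 in the probucol library. Lcn2 was far more abundant than Camp, Ngp and Ltf in both libraries. Hp, the gene of haptoglobin, which is stored in specific granules and is also an acute-phase gene, had 18.8 against 55.2 FPKM. The ratio of Lcn2 to Hp was 0.962 with probucol and 0.943 without, and that of Lcn2 to Csf3r was 13.2 with probucol and 14.8 without. Serpina3n, another acute-phase gene whose protein inhibits proteases, had 34.7 against 161 FPKM.

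**Figure D2:**
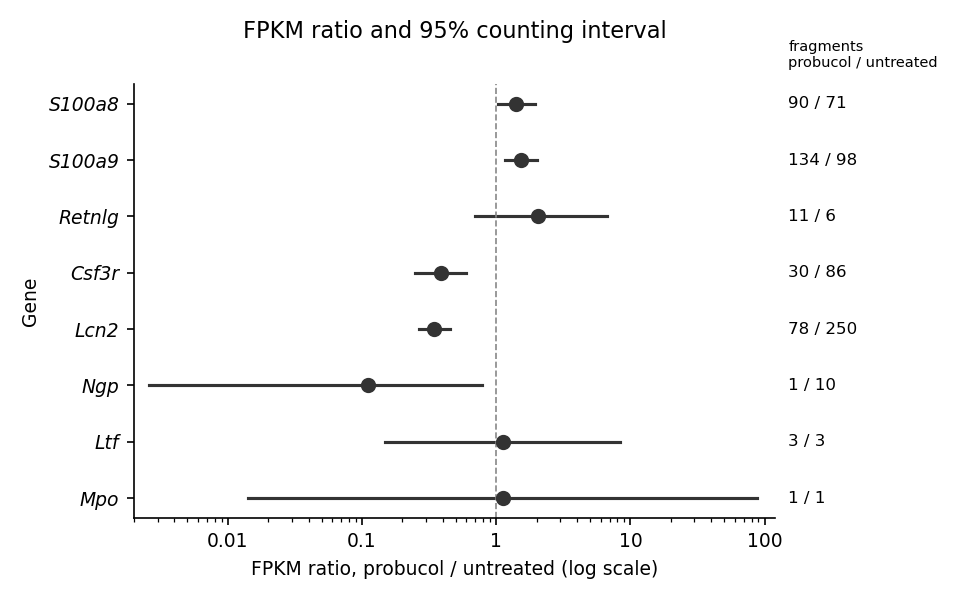
FPKM ratio of the probucol to the untreated library (points, log scale, no pseudocount) with 95% exact counting intervals (lines) for the 8 genes with fragments in both libraries, whose numbers are at the right. Only the intervals of Csf3r, Lcn2 and Ngp lie wholly below 1, those of S100a8 and S100a9 begin at 1.02 and 1.17, and those of Retnlg, Ltf and Mpo span 1.

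The remaining specific granule genes rested on few fragments. Camp (chr9:109847379-109849617, minus strand, 4 exons) encodes the antimicrobial cathelicidin; it was listed at 0 with probucol and had 2.06 FPKM without, from 6 fragments. A count of 0 allows up to 3 fragments, or 1.15 FPKM, so a lower level with probucol lies at the limit of this depth. The interval of the Camp ratio ended at 0.947 and, with 250 bases subtracted, at 1.22. Ngp (chr9:110419747-110423012, plus strand, 4 exons) encodes neutrophilic granule protein, a relative of the cathelicidins and cystatins, and had 0.157 FPKM with probucol and 1.41 without. These are 1 and 10 fragments, a ratio of 0.112 with an interval from 0.00257 to 0.784. Ltf (chr9:111019271-111042767, plus strand, 17 exons), the gene of the iron-binding lactoferrin, had 0.177 against 0.159 FPKM, which are 3 fragments in each library, and the interval from 0.149 to 8.33 allows a large difference either way.

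Camp, Ngp and Ltf lie on the same stretch of chromosome 9. From the end of Camp to the start of Ltf are 1.17 Mb, with Ngp between them and 29 protein-coding genes in all. Of these 29, Ngp included, 19 were measured, 1 was at least 2-fold lower (Ngp itself) and 0 were 2-fold higher, with a median log2 ratio of 0.09.

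Both azurophil granule genes among the members were at the limit of detection in both libraries. Mpo (chr11:87793581-87804413, plus strand, 14 exons), the gene of myeloperoxidase, had 0.0639 FPKM with probucol and 0.0573 without, which is 1 fragment in each; an antisense gene, Gm11505, overlaps it, and the sources used here do not say whether strand was used in counting. Elane (chr10:79886247-79888215, plus strand, 5 exons), the gene of neutrophil elastase, was listed at 0 with probucol and had 0.188 FPKM without, from 1 fragment. No difference can be read from either gene. Prtn3, the protease gene 3072 bases before Elane, had 2 fragments with probucol and 1 without. Ctsg, the gene of cathepsin G, was listed at 0 in both. Together, Camp, Ngp, Ltf, Mpo and Elane had 5 fragments with probucol and 21 without, of which Camp and Ngp made up all but 5 in the untreated library.

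Differences of the members were set against those of all genes. On the scale log2((FPKM probucol + 0.5)/(FPKM untreated + 0.5)), which understates the difference of low genes, S100a8 had 0.49, S100a9 0.61, Retnlg 0.88, Csf3r -1.11, Lcn2 -1.50 and Ngp -1.54. Camp, listed at 0 in the probucol library, has no fold. On this scale, 4 of the 10 members were past the 2-fold limit as lower: Camp, Ngp, Csf3r and Lcn2. All 4 were among the 7 measured members, and of all 12882 measured genes 5.14% were past this limit. Camp was past it only through the pseudocount. None of the 10 was at least 2-fold higher, where 1.07% of all were. At 1.5-fold, 2 were higher (S100a9 and Retnlg) and the same 4 lower, where 5.52% and 12.0% of all genes were. Csf3r passed the 2-fold limit narrowly (-0.93 with a pseudocount of 1), and S100a9 the 1.5-fold limit (0.55 after rescaling to equal sums without the 100 most abundant genes). The members were picked from this comparison, so nothing is read from these counts. The median log2 ratio of all measured genes was 0.01.

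**Figure D3:**
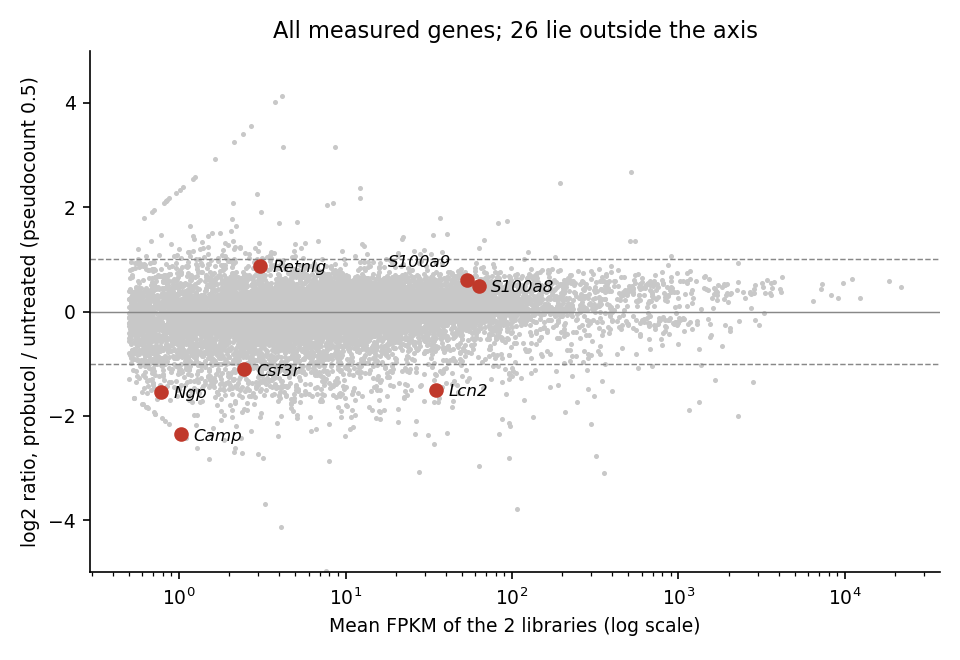
log2 ratio of the probucol to the untreated library (pseudocount 0.5) against the mean FPKM (log scale) for 12882 measured genes (grey), with the 7 measured members in red and dashed lines at 2-fold; 26 genes lie outside the axis. S100a8 (0.49) and S100a9 (0.61) lie between the dashed lines, while Lcn2 lies below the lower dashed line at a similar level.

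Most other genes listed for mature neutrophils had lower values in the probucol library, 20 of 25 measured. Their median log2 ratio was -0.71, and 14 were lower and 0 higher by the 1.5-fold limit. Cxcr2, the receptor by which neutrophils follow chemokines, had 0.580 FPKM with probucol and 1.37 without, and Mmp9, a gelatinase of tertiary granules, had 0.604 against 1.08. The lowest ratios were those of Lilrb4a (8.24 against 44.0 FPKM), Clec4d (4.37 against 17.6) and Itgb2, the beta chain of leukocyte integrins (7.82 against 23.0). These 3 genes are also expressed by macrophages, and they are not the only shared genes, as the list was not restricted to neutrophils. Macrophage markers had a median log2 ratio of -1.52, and the part of macrophages in the values of this list was not tested. Stfa2l1, a stefin of neutrophils, was listed at 0 with probucol and had 2 fragments without. G0s2, a lipase inhibitor that many tissues make, had 83.5 against 68.8 FPKM (interval 1.04 to 1.42) and was 1 of 5 genes with a log2 ratio above 0. Of the list, Ly6g was not found under this name among the gene symbols of the libraries.

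Other granule genes were lower or near equal. Of 5 measured genes of specific granules, 3 were at least 1.5-fold lower and 0 higher. Mmp8, neutrophil collagenase, had 0.399 FPKM with probucol and 1.25 without, from 6 and 21 fragments (interval of the ratio 0.105 to 0.816). Chil3, a lectin of neutrophils and alternatively activated macrophages, had 6 and 24 fragments. Pglyrp1, an antibacterial protein of these granules, had 7 fragments in each library. Of 3 measured azurophil and promyelocyte genes, 1 was at least 1.5-fold lower, Nkg7, which is better known from cytotoxic lymphocytes (2 and 8 fragments, interval 0.0288 to 1.397). Prss57, a serine protease of azurophil granules, had 1.68 against 2.42 FPKM (log2 ratio -0.42). Srgn, the proteoglycan that packs granules in many blood cells, had 69.4 against 95.9 FPKM.

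Several genes of factors that make and attract neutrophils had lower values in the probucol library, and some were near detection. Csf3, the ligand of Csf3r, was listed at 0 in both libraries, and Cebpe, the factor of specific granule genes, had 1 fragment with probucol and 0 without. Cebpa had 7.63 against 16.6 FPKM and Spi1, which encodes PU.1, had 11.3 against 25.6. Neither gene is restricted to neutrophils. Of 8 measured genes of this list 5 were at least 1.5-fold lower. Of 8 measured chemoattractant genes and receptors, 5 were lower and 0 higher by this limit. Cxcl1 had 24 fragments with probucol and 37 without (interval 0.414 to 1.24), and Cxcl2 had 1 and 8 (interval 0.00314 to 1.04), and both intervals include an equal level. Cxcl5 had 17 and 56 fragments (interval 0.184 to 0.591). Alox5ap, the gene of this list with the highest mean, had 22.2 against 58.2 FPKM, and C5ar1 had 4.36 against 10.3. Lta4h, an enzyme of leukotriene B4 synthesis, had nearly equal values, 25.2 against 24.6 FPKM. Ltb4r1, the receptor of that lipid, named after its values were seen, had 0.631 FPKM with probucol, from 5 fragments, and was listed at 0 without. Of 8 measured receptors and adaptors of calprotectin, 4 were lower and 0 higher by the 1.5-fold limit, and 2 of the 8 had a log2 ratio above 0. Bsg, a surface glycoprotein and by far the most abundant, had 1085 against 902 FPKM. Tlr4 had 11.7 against 15.1 FPKM, its co-receptor Ly96 had 11.4 against 19.0, Cd14 had 12.0 against 26.4 and Myd88 had 9.68 against 14.9, and of these 4 genes Tlr4 did not pass the limit. Of partners and inhibitors of granule proteins, 9 of 15 measured were at least 1.5-fold lower. Ctsc, the protease that activates the azurophil proteases, had 26.4 against 60.6 FPKM, Ncf1, a subunit of the phagocyte oxidase, had 4.58 against 15.4, and Slpi, an inhibitor of elastase, had 9 against 13 fragments. The lists of this paragraph also hold genes that macrophages and monocytes express, and the part of those cells in the values was not tested.

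Markers of other cells differed in both directions seen among the members. Of 15 macrophage markers 14 were at least 1.5-fold lower with probucol, and their summed level was 1137 FPKM against 3736, with none listed at 0. Of 8 monocyte markers 7 were lower, with a sum of 64.2 against 140 FPKM. These lists differed in the direction of Csf3r, Lcn2, Camp and Ngp. Of 7 measured erythroid markers 6 were at least 1.5-fold higher and 0 lower, with a sum over 10 genes of 9676 against 5695 FPKM; Alas2, the enzyme of heme synthesis in red cells, had 98.5 against 38.0. Of 9 measured platelet markers 5 were higher and 1, Pf4, was lower, and the sum over 13 genes was 89.0 against 120 FPKM because Pf4 made up most of it (53.9 against 111). Ppbp and Itga2b had 81 against 19 and 80 against 12 fragments. Of 8 cardiomyocyte markers 8 had a log2 ratio above 0, with a median of 0.49, close to the 0.49 of S100a8. By their medians these 3 lists differed in the direction of S100a8, S100a9 and Retnlg. Of 9 eosinophil markers 6 were listed at 0 in both libraries and 1, Ear2, was measured. Ear2 had 2.35 FPKM with probucol and 3.43 without, from 8 and 13 fragments (interval 0.247 to 1.79). The part of these cells in the values of the members was not tested.

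**Figure D4:**
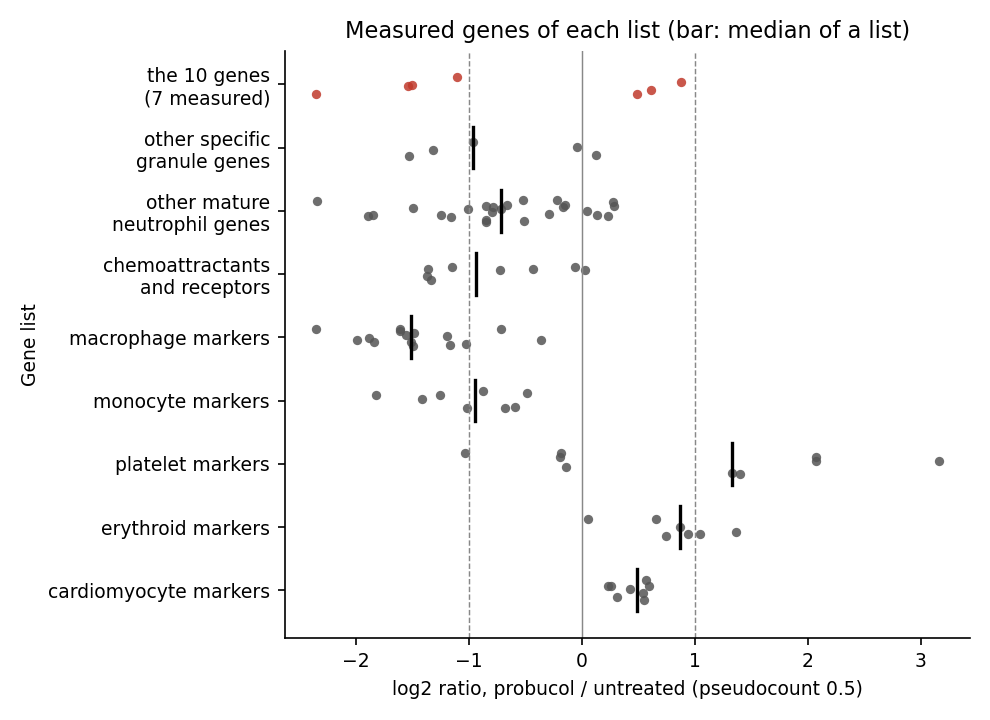
log2 ratio of the probucol to the untreated library (pseudocount 0.5) for the measured genes of each list (points, jittered vertically), with the list median as a black bar, the 7 measured members in red and dashed lines at 2-fold. The members lie in separate ranges below -1 and above 0.4, the other neutrophil, macrophage and monocyte lists lie mostly below 0, and the platelet, erythroid and cardiomyocyte medians lie above 0.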

How the data were processed

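Both libraries were made from total RNA with a TruSeq stranded mRNA kit, per the labels' protocols. The authors deposited 1 FPKM value per gene symbol and library. Build mm10 and the tools Cuffdiff 2.2.1, TopHat2 2.1.1 and Bowtie2 are named, per the submitters' processing notes. The sources used here do not give annotation, scaling between libraries or strand use. Groups were taken from the treatment label.

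A log2 ratio with a pseudocount of 0.5 FPKM was computed for genes with a mean of at least 0.5 FPKM. Groups of 1 library allow no test. Fragment numbers came from steps of low values, using the RefSeq transcript length minus 210 bases: of 542 and 514 estimates below 4.5 fragments in genes with 1 RefSeq transcript, 94.6% (probucol) and 97.3% (untreated) lay within 0.1 of a whole number. Larger estimates were rounded and are less certain. Positions are from GENCODE M21 (GRCm38). FPKM of short genes depend strongly on the effective length, and FPKM falls for all genes when a few abundant transcripts take more of a library. The steps were tested on simulated data built with the same lengths and the same 210 bases subtracted, so errors in those settings could not show. Python 3.11.15, scipy 1.17.1 and matplotlib 3.10.9 were used.

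The members and the 18 other gene lists were chosen with earlier results of these data known. All 10 members are named. Of each other list, up to 4 measured genes with the largest difference and up to 2 with the highest mean could be named, besides 13 named whatever their values. Ltb4r1 was named outside this rule. Alternatives were other pseudocounts, filters, rescalings and lengths.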

Additional observations from a re-analysis of the deposited data

How the results depend on the processing

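Rescaling moved few values: setting the median ratio of all genes to 0 shifted the log2 ratios by 0.01, and equal sums without the 100 most abundant genes by 0.06. Under the latter, 1 member was at least 1.5-fold higher in place of 2, because S100a9 (0.55) then lay below the limit. With a pseudocount of 0.1, 229 of all genes were at least 2-fold higher, against 138. With a pseudocount of 1, 3 members were 2-fold lower in place of 4, as Csf3r had -0.93, and with a filter of 1 FPKM 3 were, as Ngp was then left out. The log2 ratios of the 10 members stayed within their counting intervals under 2 other pseudocounts and 2 rescalings (40 values in all). For members with few fragments this could hardly come out otherwise. The intervals of Camp and Elane have no lower bound in log2, and that of Mpo ran from -6.14 to 6.45. Ratios of Camp, Elane and Ngp depend most on the pseudocount, at -4.43, -1.53 and -2.55 with 0.1. Fragment numbers of S100a8 ranged from 72 to 137 with probucol and from 57 to 107 without, over 150 or 250 bases subtracted or the GENCODE length, an alternative chosen after seeing the data. Of the list medians, 36 of 107 values moved by over 0.1, none of them to the other side of 0, although without a filter, where genes listed at 0 in both libraries count, those of eosinophil markers and of resistin and cathelicidin-related genes came to 0.00. No paired analysis was possible because each group has 1 library, and leaving out a library was not possible for the same reason.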
